A study of Homo sapiens with 36 samples.

Results

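The genes described here encode protein subunits of respiratory chain complexes I, III and IV and of the ATP synthase, complex V. They were chosen from the gene names alone, as the protein-coding genes whose symbols begin with NDUFA, NDUFB, NDUFC, NDUFS, NDUFV, UQCR, COX4I, COX5, COX6, COX7, COX8 or ATP5, without the NDUFAF assembly factors, together with the 13 protein genes of the mitochondrial chromosome. This gave 99 of the 57820 genes in the count table, 86 of them encoded in the nucleus and 13 in the mitochondrion. Complex I held 40 nuclear and 7 mitochondrial-encoded members, complex III 9 and 1, complex IV 17 and 3, and complex V 20 and 2. Complexes were assigned by symbol, so NDUFA4 and NDUFA4L2 are counted with complex I throughout, although NDUFA4 is known as a subunit of complex IV. RNA was sequenced from A2780 cells, a human ovarian cancer line, in the platinum-sensitive parent (wt), its isogenic cisplatin-resistant derivative (cis) and a population selected from the latter by serine/glycine deprivation, which regained serine synthesis (cis SSP). All were cultured with serine and glycine or lacking both (-SG), each with and without the DNA-damaging platinum drug carboplatin (carbo). The 3 libraries of each of the 12 conditions are called technical replicates in the study's legends, and each line is a single cell population, so the p-values below measure the spread between libraries and not between cultures. The labels write the carboplatin dose as 6 M, and no other dose was given for the sequenced cells in the sources used here.

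The respiratory chain passes electrons from NADH and ubiquinol to oxygen and pumps protons across the inner mitochondrial membrane, and the ATP synthase uses the proton gradient to make ATP. Complexes I, III, IV and V are built from subunits of both genomes, which are transcribed by different polymerases, and have to be matched during assembly. Nuclear subunit genes each have their own promoter, whereas the mitochondrial genes are transcribed as long polycistronic RNAs that are cut into single messages. Serine supplies one-carbon units inside the mitochondrion, which are used among other things for the formyl-methionine and the modified transfer RNAs of mitochondrial translation.

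The promoters of the nuclear members were searched for letters read for the factors NRF1, GABPA and YY1. Whether these letters go with the changes described below was not tested. RefSeq promoter sequences (GRCh38.p14, 250 bases before to 50 bases after the start) were matched for 68 nuclear members. The letters GCATGCGC, read for the factor NRF1, were present on either strand in 11 of them (16.2%), against 3.27% of all 27305 promoters and 4.26% of the 15843 promoters of protein-coding genes. CCGGAAG, read for GABPA, was present in 18 (26.5%, against 10.7% and 14.2%), and AAGATGGC, read for YY1, in 10 (14.7%, against 3.03% and 3.91%). The matches are descriptions of these windows and not sites shown to be bound. Stretches are given for members that led the comparisons below, with the letters of a motif, on either strand, in capitals.
ATP5PB (YY1 letters, chr1:111449451-111449480, + strand): acttgtgagcgGCCATCTTggtcctgccct
NDUFS4 (YY1 letters, chr5:53560649-53560678, + strand): ttgcctgcagcAAGATGGCggcggtgtcaa
NDUFA3 (YY1 letters, chr19:54102865-54102894, + strand): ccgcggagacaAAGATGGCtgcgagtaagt
UQCRQ (GABPA letters, chr5:132866577-132866605, + strand): aatggtatctcCCGGAAGttacctcacga
COX4I1 (GABPA letters, chr16:85799686-85799714, + strand): ggccttgctctCTTCCGGtcgcgggacac
NDUFS6 (NRF1 letters, chr5:1801350-1801379, + strand): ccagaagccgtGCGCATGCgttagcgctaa
ATP5MC2 (NRF1 letters, chr12:53676105-53676134, - strand): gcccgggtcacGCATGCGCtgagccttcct

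Some mitochondrial genes share bases on the same strand, so that a read over the shared bases cannot be given to a single gene. In GRCh37, MT-ATP8 and MT-ATP6 share 46 bases, which are 22.2% of MT-ATP8, and MT-ND4L and MT-ND4 share 7. The shared bases are in capitals, with 10 flanking bases on each side.
MT-ATP8 and MT-ATP6 (chrM:8517-8582, + strand): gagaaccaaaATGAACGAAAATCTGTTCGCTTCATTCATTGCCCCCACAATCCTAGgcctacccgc
MT-ND4L and MT-ND4 (chrM:10750-10776, + strand): acctactccaATGCTAAaactaatcgt
Nuclear pseudogene copies of the mitochondrial genes also took up counts. Those named after MT-ND2 held 15.8% as many counts as the gene itself, those named after MT-ATP6 14.4% and those named after MT-ND1 9.71%, so these 3 genes are less certain.

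Libraries held between 13074937 and 20441582 counts on genes. In 3 libraries the counts shifted with transcript length against the mean of all libraries, with slopes of log2 CPM (counts scaled to library size by TMM, as CPM) per doubling of length of -0.33 in library 25 (cis SSP), -0.32 in library 32 (cis SSP -SG) and -0.073 in library 11 (wt -SG carbo), against -0.039 to 0.095 in the other 33. The members are mostly short genes, and the counts of calls that rest on these libraries are given with and without them. Of the 8 ovarian epithelial markers checked, KRT18 reached 44.1 CPM and KRT8 6.45 CPM, whereas the defining PAX8 and MUC16 were at most at 0.612 and 0.167 CPM. The sum of the 8 moved with the conditions, from 1.78 to 2.39 CPM in wt, 16.6 to 19.9 in cis, 44.7 to 48.3 in cis -SG, 11.7 to 13.1 in wt carbo and 9.63 to 15.8 in cis SSP libraries. The 5 leukocyte markers summed to at most 0.664 CPM. The 5 fibroblast markers, led by COL1A1 at up to 991 CPM, moved with the lines, from 827 to 854 summed CPM in wt, 18.6 to 22.4 in cis and 252 to 345 in cis SSP libraries. In cis -SG libraries they summed to 9.40 to 11.5 CPM and in wt carbo libraries to 1798 to 1824 CPM. The part of both marker lists in the results below was not tested. In bulk RNA, fewer cells of a kind and less RNA per cell cannot be told apart.

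The nuclear members together took 0.512% to 1.61% of all counts and the 13 mitochondrial-encoded members 2.71% to 7.60%. Per kilobase of transcript, the 11 highest members in wt cells were all mitochondrial-encoded, led by MT-ND4 at 6268 and MT-CO2 at 6037 CPM per kilobase. The highest nuclear member per kilobase was ATP5F1B, the catalytic beta subunit of the ATP synthase, at 1513, followed by ATP5F1A, its alpha subunit, at 997. In the 9 conditions without libraries 11, 25 and 32 the coefficient of variation of the summed nuclear level was 0.782% to 7.19% and that of the mitochondrial sum 5.59% to 28.3%. In the other 3 conditions it was 8.89% to 34.6% for the nuclear and 18.75% to 35.7% for the mitochondrial sum.

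In wt cells the nuclear sum was 9381 ± 151 CPM (SD, n = 3), in cis cells 7267 ± 150 CPM and in cis -SG cells 5207 ± 45.95 CPM. All 3 cis -SG libraries, at 5165, 5199 and 5256 CPM, lay below all cis libraries, at 7122, 7257 and 7422 CPM, and these below all wt libraries, at 9235, 9372 and 9537 CPM. The cis SSP libraries were at 9348, 9452 and, in library 25, 16450 CPM. The lowest level was that of cis -SG carbo cells, at 4746 ± 341 CPM. As a percentage of all counts, without TMM, it was 0.525% ± 0.0119, against 0.5315% ± 0.00179 in cis -SG cells. These conditions are therefore not clearly ordered.
The mitochondrial sum was 37870 ± 6670 CPM in wt, 31910 ± 3795 CPM in cis and 44450 ± 6558 CPM in cis -SG cells. The libraries of cis carbo cells alone spanned 26670 to 48080 CPM, so a difference of this size between conditions is within what libraries of a single condition can show. The highest level was that of cis SSP -SG carbo cells, at 61520, 73860 and 78200 CPM, above all libraries of the other conditions but 2 of the cis SSP carbo ones, which were at 62450 and 64140 CPM.
The log2 ratio of the mitochondrial to the nuclear sum was 2.00 ± 0.28 in wt, 2.13 ± 0.18 in cis and 3.08 ± 0.21 in cis -SG cells (SD, n = 3). All 3 cis -SG libraries, from 2.91 to 3.31, were above the wt and cis libraries, whose highest value was 2.29. The ratio was 2.64 ± 0.23 in cis -SG carbo, 2.71 ± 0.23 in cis SSP carbo and 3.05 ± 0.22 in cis SSP -SG carbo cells.

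**Figure D1:**
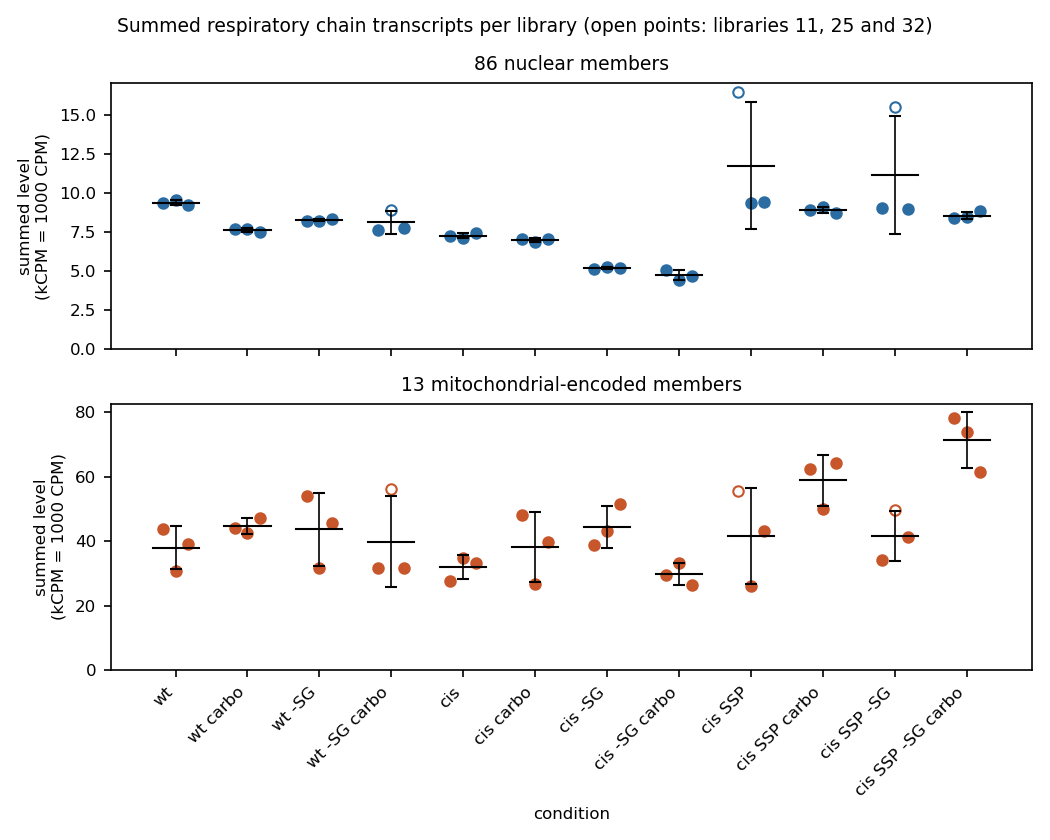
Summed level of the 86 nuclear (top) and the 13 mitochondrial-encoded members (bottom) in kCPM (1000 CPM) for each of the 36 libraries by condition, with the mean and SD of 3 libraries as lines. The nuclear sums are close within a condition apart from the open points (libraries 11, 25 and 32) and are lowest in the cis -SG and cis -SG carbo conditions, at 5207 and 4746 CPM on average, while the mitochondrial sums spread widely.

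Several members are tissue isoforms, and these cells used the widely expressed form of each. COX4I1 stood at 282 ± 4.20 CPM in wt cells, whereas COX4I2, the lung and hypoxia-linked form, had at most 1 count in any library. COX6A2, the heart and muscle form beside COX6A1, had no count, which allows at most 3 counts in a library. COX7B2 had at most 1, COX8C at most 5, COX7A1 at most 17 and COX6B2, a testis form, at most 27 counts. The readthrough genes NDUFC2-KCTD14 and ATP5MF-PTCD1 had at most 0 and 4 counts and ATP5MGL at most 1. NDUFV2, a core subunit of the NADH-oxidising module, was listed low, with at most 54 counts, as was NDUFA7, with at most 24. In the annotation both overlap other genes on the same strand, so their values are uncertain. UQCRHL, a near copy of UQCRH, had at most 160 counts.

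Between wt and cis cells, most nuclear members were lower in the resistant cells. Of the 77 nuclear members tested, 59 were lower and 9 higher in cis cells, where 39.1% of all 14431 genes tested were lower and 39.4% higher. Their median log2 fold change, cis over wt, was -0.34, against 0.00 over all genes tested and 0.03 over 2643 protein-coding genes with transcripts under 1000 bases. Complex I had 31 lower and 4 higher of 38 tested, complex III 6 and 2 of 9, complex IV 8 and 3 of 12 and complex V 14 and 0 of 18. In a single fit over the 36 libraries, whose shared spread draws on libraries 25 and 32 too, 29 nuclear members were called, 27 of them lower.
ATP5PB (ENSG00000116459.6, chromosome 1 from 111991486 to 112005395 in GRCh37), the peripheral stalk subunit b of the ATP synthase, was at 184, 184 and 175 CPM in wt and at 61.6, 62.8 and 69.7 CPM in cis libraries. The groups did not overlap, and the log2 fold change was -1.52 (SE 0.0356, adjusted p = 3.39e-33, edgeR). ATP5F1B (chromosome 12 from 57031959 to 57039768) was at 1295, 1315 and 1276 CPM in wt and at 608, 601 and 621 CPM in cis libraries. It fell by 1.12 on the log2 scale (SE 0.0234, adjusted p = 2.30e-37, edgeR). NDUFB3, an accessory subunit of complex I, fell from 37.7 ± 0.564 to 18.04 ± 0.746 CPM, a log2 fold change of -1.10 (SE 0.0594, adjusted p = 2.69e-21, edgeR). COX4I1 was also lower, at 152 ± 1.93 CPM in cis cells.
The members higher in cis cells were led by NDUFB9, an accessory subunit of complex I (chromosome 8 from 125551342 to 125592889). It was at 72.0, 74.7 and 74.0 CPM in wt and at 122, 119 and 133 CPM in cis libraries, with a log2 fold change of 0.73 (SE 0.0361, adjusted p = 1.46e-22, edgeR). COX6A1 was higher by 0.33 and NDUFC1 by 0.25 on the log2 scale. Each overlaps another gene on the same strand in the annotation, which makes its value less certain. Other members named here also overlap such a gene, among them ATP5F1B, NDUFB3, NDUFS4, NDUFB6, NDUFC2, ATP5MC2, ATP5MC3 and ATP5MK.
Of the 13 mitochondrial-encoded members, 1 was lower, MT-CO2, a copper-carrying subunit of cytochrome oxidase, with a log2 fold change of -0.54 (SE 0.162, adjusted p = 0.0340, edgeR). Of 6 fits with a library left out, 1 kept this call. The median of the 13 was -0.33, close to that of the nuclear members, but the spread of the libraries was wider and 11 of the 13 were negative. Values of the other 12 lay between -0.39 and 0.21 with adjusted p of at least 0.124.

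**Figure D2:**
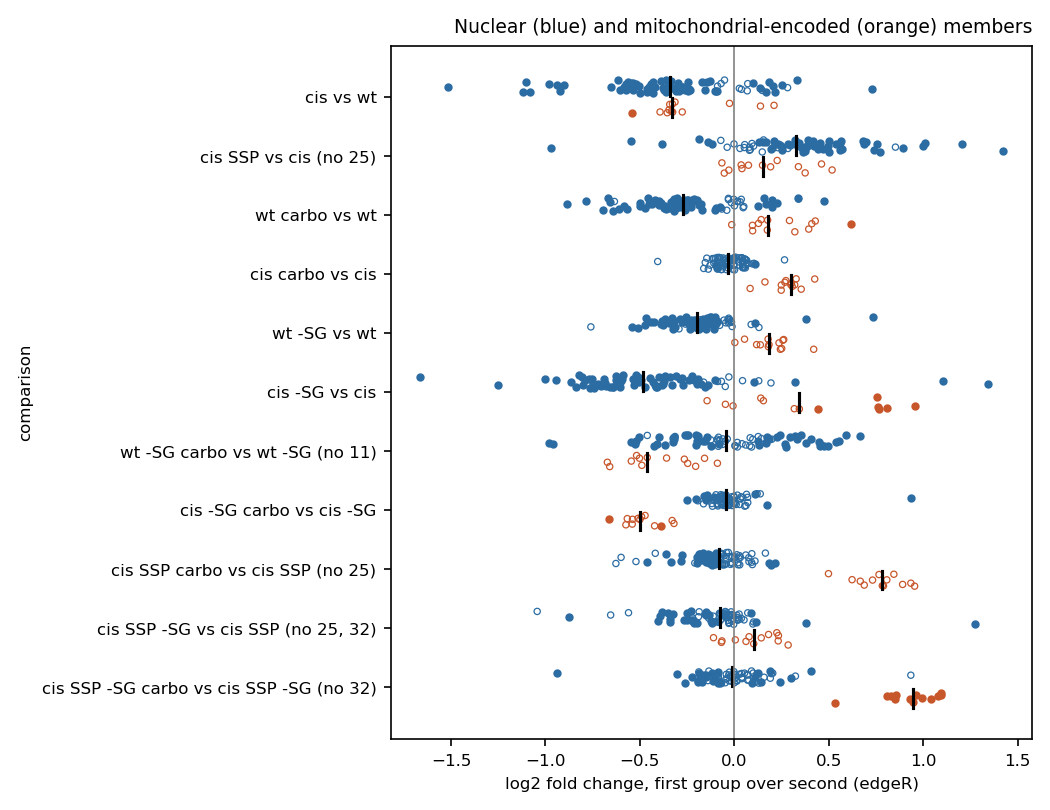
Log2 fold change of each tested member in 11 comparisons, first group over second, from edgeR, with filled points for adjusted p under 0.05, open points for the rest and a bar at the median. Fits without libraries 11, 25 or 32 are shown where the label says so. The nuclear medians are -0.34, -0.27, -0.20 and -0.48 for cis vs wt, wt carbo vs wt, wt -SG vs wt and cis -SG vs cis, and 0.33 for cis SSP vs cis.

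In cis SSP cells the nuclear members were higher than in cis cells. With all libraries, 15 of 78 were called higher and 1 lower, where 15.8% of 13714 genes were higher and 13.3% lower, and the median log2 fold change, cis SSP over cis, was 0.69. Library 25 decided this value. Without it, 55 were higher and 6 lower, where 32.9% of 14154 genes were higher and 32.5% lower, and the median was 0.33, against 0.03 over protein-coding genes with transcripts under 1000 bases. Leaving out a cis library instead brought the number called to 3 or 4, and leaving out library 27 to 14.
The largest difference was again that of ATP5PB, at 170.6 and 167 CPM in libraries 26 and 27 and 269.5 CPM in library 25, all above the cis libraries. Its log2 fold change was 1.67 (SE 0.203, adjusted p = 0.00213, edgeR) with all libraries and 1.42 (SE 0.0419, adjusted p = 2.29e-24, edgeR) without library 25. ATP5F1B, at 1358 and 1372 CPM in libraries 26 and 27, was called with all libraries too (SE 0.123, adjusted p = 0.000763, edgeR) and had 1.20 without library 25 (SE 0.0280, adjusted p = 2.48e-28, edgeR). COX4I1 had 1.22 with all libraries and 0.77 without library 25. NDUFB1 and NDUFC2, accessory subunits of complex I, were called with all libraries at 1.53 and 1.44, and with 1.01 and 0.89 without library 25. NDUFB9 was at -0.15 with all libraries, which was not called, and was called lower without library 25, at -0.55 (SE 0.0434, adjusted p = 1.01e-12, edgeR), with 84.7 and 80.9 CPM in libraries 26 and 27. In the fits of these conditions alone, none of the mitochondrial-encoded members was called by edgeR with or without library 25, with 1 and 0 at an unadjusted p under 0.05 and 1 called by DESeq2 with all libraries, and their median was 0.28 and 0.15. Without library 26, 3 were called higher, and in the fit over the 36 libraries 4.

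The members with the largest differences between the lines were set beside their chromosomal neighbours, the well-expressed protein-coding genes within 10 Mb other than members. This view was chosen after the values were seen. Near ATP5PB, 69 of 76 genes were also lower in cis than in wt cells, and their median difference was -0.94 on the log2 scale, where 46.1% of all such genes were lower. In cis SSP against cis cells without library 25, 71 of its 74 neighbours were higher, with a median of 0.88. Near NDUFB9, 33 of 38 neighbours were higher in cis than in wt cells (median 0.51), and 34 of 38 were lower in cis SSP than in cis cells without library 25 (median -0.69). UQCRB and COX6C, which lie on the same chromosome, had neighbours with medians of 0.61 and 0.57 between cis and wt cells, and were themselves higher in cis cells by 0.18 and 0.14 on the log2 scale. Near ATP5F1B the median was 0.05 and near NDUFB3 -0.05, so the neighbours of these members did not share their difference of over 1 on the log2 scale.

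**Figure D3:**
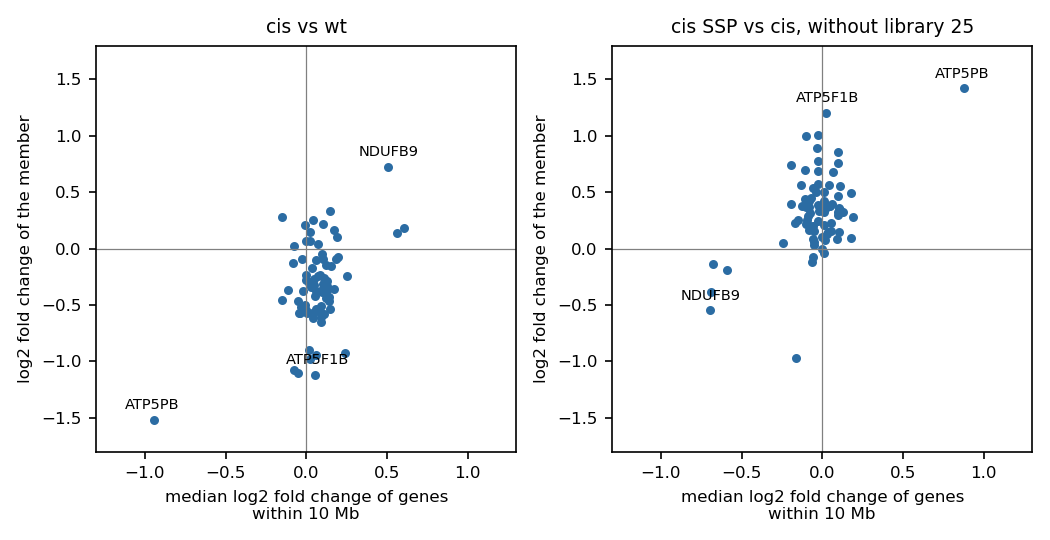
Log2 fold change of each tested nuclear member against the median log2 fold change of its neighbours within 10 Mb, for cis vs wt (left) and for cis SSP vs cis without library 25 (right), from edgeR. ATP5PB, at -1.52 and 1.42, and NDUFB9, at 0.73 and -0.55, lie far out along both axes, while ATP5F1B lies near 0 on the horizontal axis.

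Serine/glycine deprivation was followed by lower nuclear members in both wt and cis cells, with larger differences in cis cells. In wt cells 54 of 77 fell and 3 rose, where 25.1% of 14284 genes fell and 24.1% rose, and the median log2 fold change was -0.20. In cis cells 66 of 78 fell and 4 rose, where 37.4% of 14122 genes fell and 37.6% rose, and the median was -0.48, against -0.09 over 2620 protein-coding genes with transcripts under 1000 bases. All 9 tested members of complex III fell in cis cells, as did 11 of 12 of complex IV, 17 of 18 of complex V and 29 of 39 of complex I. In a single fit over the 36 libraries, 2 nuclear members were called in wt cells, 1 higher and 1 lower. Of all genes called there, 50.6% were higher. In cis cells the same fit called 47 nuclear members. Of these 47, 45 were lower, where 48.2% of all genes called were higher.
UQCRQ, a small subunit of complex III, was at 90.9, 93.3 and 94.4 CPM in cis and at 43.2, 47.7 and 45.5 CPM in cis -SG libraries. It fell by 1.005 on the log2 scale in cis cells (SE 0.0426, adjusted p = 1.81e-25, edgeR) and by 0.48 in wt cells. NDUFA3, of complex I, was at 12.8 to 13.9 CPM in cis and 6.35 to 7.09 CPM in cis -SG libraries, a log2 fold change of -0.94 (SE 0.0955, adjusted p = 3.25e-12, edgeR). ATP5MC3, a gene for the c subunit of the proton-conducting ring, fell by 0.87 in cis and 0.47 in wt cells. The other 2 genes for the same protein behaved less alike. ATP5MC1 fell by 0.54 in wt cells, the largest called fall there, and by 0.42 in cis cells, from 75.2 ± 2.95 to 55.2 ± 2.91 CPM. ATP5MC2 stood at 223 ± 2.49 CPM in wt and 216 ± 5.59 CPM in wt -SG cells, which was not called, and fell by 0.15 in cis cells, from 212 ± 2.88 to 187 ± 5.87 CPM. NDUFS6 fell by 0.51 in wt cells.
A few members went the other way in all 3 lines. COX7A2L, which acts in joining complexes III and IV into supercomplexes, was at 117, 122 and 116 CPM in wt and at 159, 151 and 148 CPM in wt -SG libraries. Its log2 fold change was 0.38 in wt cells (SE 0.0331, adjusted p = 7.61e-09, edgeR), 0.32 in cis cells (SE 0.0351, adjusted p = 2.65e-11, edgeR) and 0.38 in cis SSP cells without libraries 25 and 32 (SE 0.0367, adjusted p = 3.18e-09, edgeR). NDUFA4L2, a paralogue of the complex IV subunit NDUFA4 that is known as a hypoxia-induced gene, was at 2.39 to 2.94 CPM in wt and 4.27 to 4.53 CPM in wt -SG libraries. In cis cells it went from 1.58 to 2.38 up to 3.94 to 5.57 CPM. The log2 fold changes were 0.73 (SE 0.146, adjusted p = 2.99e-04, edgeR) in wt, 1.34 (SE 0.1804, adjusted p = 8.87e-09, edgeR) in cis and 1.28 (SE 0.220, adjusted p = 3.90e-05, edgeR) in cis SSP cells without both libraries. With libraries 25 and 32, the cis SSP values were 0.38 for COX7A2L and 1.26 for NDUFA4L2, and neither was called. The groups of NDUFA4L2 did not overlap in any of the 3 lines, though its counts were few. In the annotation NDUFA4L2 overlaps the gene SHMT2 on the other strand. How strand was treated in the counting is not given, so its values are less certain. NDUFA4 itself fell by 0.12 on the log2 scale in wt and by 0.59 in cis cells.
The fall in nuclear members differed between the lines. By the interaction of line and deprivation, fitted over their 4 conditions, the log2 fold change with deprivation was lower in cis than in wt cells for 48 of 78 nuclear members and higher for 7, where 26.9% of 15418 genes were lower and 27.1% higher. The median difference was -0.27. ATP5F1A was the member with the largest lower difference among members averaging 50 counts or more, at -0.71 (SE 0.0345, adjusted p = 9.70e-20, edgeR), since it stood at 907 and 884 CPM in wt and wt -SG cells and at 722 and 420 CPM in cis and cis -SG cells.

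The mitochondrial-encoded members did not follow the nuclear ones in cis cells. Of the 13, 6 were higher in cis -SG than in cis cells and none was lower by edgeR. Of all 14122 genes tested, 37.6% were higher and 37.4% lower. The share of the 13 called higher was thus not far from that of all genes, while none was lower. At an unadjusted p under 0.05 there were 7, and DESeq2 called 7, all higher. MT-CO1, the catalytic core of cytochrome oxidase, was at 4316, 5364 and 4978 CPM in cis and at 8182, 8829 and 10860 CPM in cis -SG libraries. Its log2 fold change was 0.95 (SE 0.151, adjusted p = 0.00392, edgeR). MT-ND2, a membrane subunit of complex I, was at 1776 to 2240 CPM in cis and 3156 to 4011 CPM in cis -SG libraries, with 0.81 (SE 0.143, adjusted p = 0.00587, edgeR). MT-ND6, MT-ND5, MT-CYB and MT-CO3 were higher by 0.76, 0.76, 0.75 and 0.45. MT-ND3, MT-ATP6 and MT-ATP8 were at -0.14, -0.05 and -0.01, with adjusted p of at least 0.259. The call of MT-CO3 was lost in 5 of the 6 fits leaving out a library, and that of MT-ND5 without library 15 or library 20. In wt cells none of the 13 was called, by edgeR or DESeq2, with none at an unadjusted p under 0.05 in either direction by edgeR, and the median was 0.18, with -0.02 when library 7 was left out. By edgeR the difference between the lines was called for MT-ND2 alone, at 0.82 (SE 0.286, adjusted p = 0.0387, edgeR), and 9 of 12 fits with a library left out lost the call.

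The make-up of the 13 messages can be read apart from their sum, as the share of each in their total count. MT-CO1 took 16.1% ± 0.0654 of the total in wt, 18.6% ± 0.551 in wt -SG, 15.3% ± 0.323 in cis and 20.9% ± 0.345 in cis -SG cells (SD, n = 3). MT-ND4 took 22.1% ± 0.196 in cis and 17.3% ± 0.448 in cis -SG cells, while it took 22.8% ± 0.215 in wt and 23.3% ± 0.435 in wt -SG cells. MT-ND2 went from 6.52% ± 0.198 to 8.07% ± 0.258 in cis cells and from 4.90% ± 0.197 to 4.20% ± 0.0469 in wt cells. MT-ATP6, MT-ATP8, MT-ND1, MT-ND3, MT-ND4L and MT-CO2 had smaller shares in cis -SG than in cis cells, with no overlap of the libraries. MT-CYB, MT-ND5 and MT-ND6 had larger shares, also with no overlap, and only the libraries of MT-CO3 overlapped. The shares make up a whole, so larger shares of some genes go with smaller shares of others. MT-ND4 and MT-ND4L are read from a single message, and their shares moved in the same direction. In cis -SG carbo cells MT-CO1 was at 21.9% ± 0.196 and MT-ND4 at 17.04% ± 0.406, close to the cis -SG values. These shares were not tested, and the smallest p an exact permutation test of 3 against 3 libraries allows is 0.1.

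**Figure D4:**
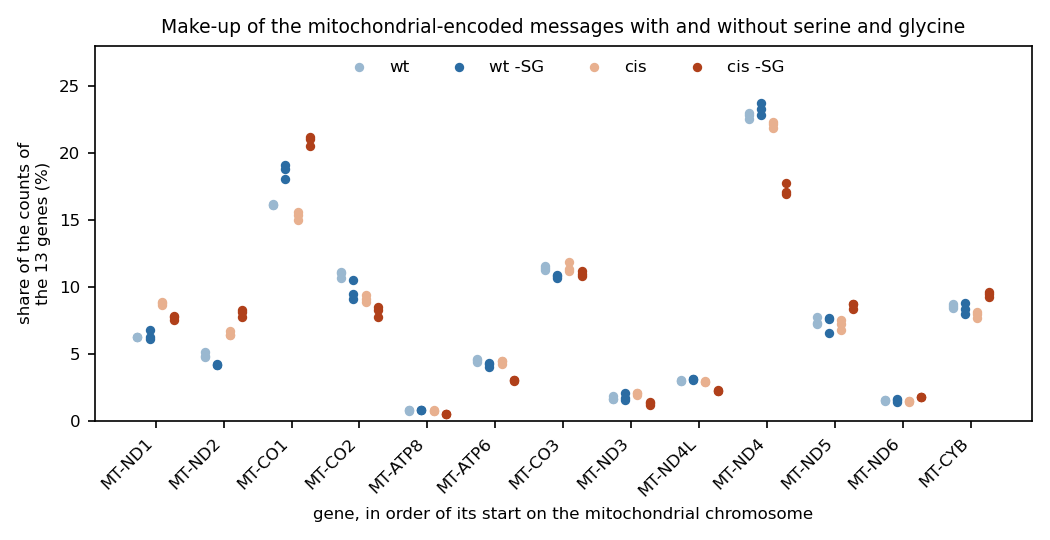
Share of each mitochondrial-encoded gene in the summed counts of the 13 genes, in percent, with a point for each library of the wt, wt -SG, cis and cis -SG conditions, in the order of the genes on the chromosome. The cis -SG libraries stand apart for all genes but MT-CO3, among them MT-CO1 (20.9% on average, against 15.3% in cis), MT-ND2 and MT-ND4 (17.3%, against 22.1%).

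In cis SSP cells, no member was called with deprivation in the fit of the 6 libraries, where 0.0218% of 13736 genes were higher and 0% lower by edgeR, with 3 nuclear members at an unadjusted p under 0.05 and 1 called by DESeq2. Without libraries 25 and 32, 28 of 78 nuclear members were lower and 4 higher, where 17% of 13925 genes were lower and 18.9% higher, and the median was -0.08. The nuclear sums were 9348 and 9452 CPM in libraries 26 and 27 and 9017 and 8966 CPM in libraries 31 and 33. NDUFS7, an iron-sulfur subunit of complex I, had the largest called fall among these, by 0.87 on the log2 scale, and -0.60 with both libraries, which was not called. The 4 higher members were NDUFA4L2, COX7A2L, NDUFB5 and NDUFS1. No mitochondrial-encoded member was called by edgeR, with none at an unadjusted p under 0.05 with all libraries and none called by DESeq2. Whether deprivation acts differently in cis SSP and cis cells was not tested.

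With carboplatin, nuclear members fell in wt cells and hardly moved in cis cells. In wt cells 55 of 78 fell and 8 rose, where 39.0% of 14639 genes fell and 38.9% rose. The median of the nuclear members was -0.27 on the log2 scale. Complex III had 8 of 9 lower, complex IV 9 of 12, complex I 27 of 39 and complex V 11 of 18. In a single fit over the 36 libraries, 15 were called, all lower, where 51.3% of all genes called were higher. In cis cells 4 of 77 fell and 1 rose, where 10.8% of 13458 genes fell and 9.27% rose, and the median was -0.03.
NDUFS4, an accessory subunit of complex I (chromosome 5 from 52856463 to 52979168), was at 47.2, 44.4 and 41.9 CPM in wt and at 24.5, 23.7 and 23.1 CPM in wt carbo libraries. It fell by 0.89 on the log2 scale (SE 0.0526, adjusted p = 4.54e-54, edgeR). NDUFA5 fell from 51.7 ± 2.22 to 29.6 ± 0.105 CPM, by 0.78, and NDUFB6, also of complex I, by 0.70. ATP5MK, a small ATP synthase subunit, rose from 90.5 to 96.6 up to 115 to 120 CPM, by 0.34 (SE 0.0302, adjusted p = 2.98e-26, edgeR), and NDUFB9 by 0.23. NDUFA4L2 rose by 0.48 with a mean of 56.0 counts, and DESeq2 did not call it. ATP5IF1, the inhibitor of the ATP synthase, went from 76.2 ± 3.46 CPM to 84.0 ± 0.618 CPM, a rise of 0.16 on the log2 scale.
The members called lower in cis cells were the ATP synthase genes ATP5F1C, ATP5MC2, ATP5F1A and ATP5F1B, each by 0.08 to 0.10 on the log2 scale. ATP5F1A was at 698 to 746 CPM in cis and 648 to 682 CPM in cis carbo libraries (adjusted p = 0.0168, edgeR). The number called in cis cells was 2 by DESeq2, 0 in the fit over the 36 libraries, and 0 to 7 with each library left out, the lowest without library 18.
The interaction of line and carboplatin was called for 51 of 78 nuclear members. Their log2 fold change was higher, that is less negative, in cis than in wt cells for 47, where 30.3% of 15300 genes were higher, and lower for 4, where 27.2% were lower. The median difference was 0.24. It was largest for NDUFS4, at 0.78 (SE 0.0836, adjusted p = 3.40e-12, edgeR), NDUFB3, at 0.64, and NDUFA5, at 0.64. ATP5IF1, ATP5MK, NDUFS5 and NDUFB9 made up the 4 lower ones. The fit over the 36 libraries called 4 nuclear members, all higher, where 49.3% of all genes called were higher.
Of the mitochondrial-encoded members, MT-ND1 was higher with carboplatin in wt cells, at 0.62 (SE 0.163, adjusted p = 0.0224, edgeR), a call that was lost in 4 of the 6 fits leaving out a library and without the filter. DESeq2 called 3 mitochondrial-encoded members higher. None was called in cis cells, by edgeR or DESeq2, and none had an unadjusted p under 0.05 by edgeR, with all 13 positive and a median of 0.30, which ranged from 0.084 without library 16 to 0.48 without library 17. The difference between the lines was called for none by edgeR or DESeq2, with none at an unadjusted p under 0.05 by edgeR, and the median difference was -0.04.

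**Figure D5:**
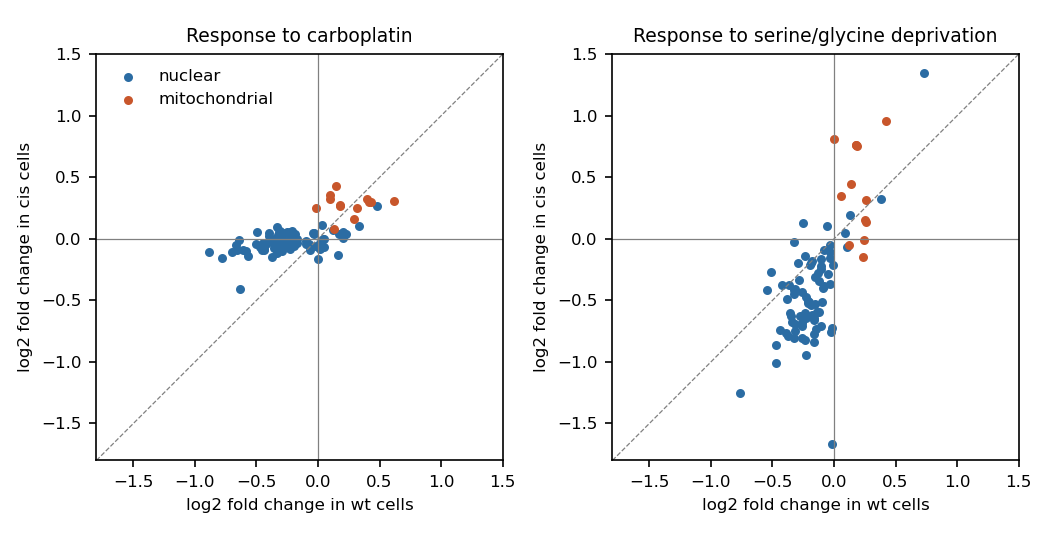
Log2 fold change of each member in cis cells (vertical) against that in wt cells (horizontal), for carboplatin (left) and serine/glycine deprivation (right), from edgeR, with a dashed line where both are equal. With carboplatin the nuclear members spread along the wt axis, with medians of -0.27 in wt and -0.03 in cis cells, and with deprivation most lie below the line, with medians of -0.20 and -0.48.

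In cis SSP cells with carboplatin, no member was called by edgeR in the fit of the 6 libraries, with 5 mitochondrial-encoded members at an unadjusted p under 0.05 and 3 called by DESeq2, where 1.97% of 13885 genes were higher and 0.749% lower, with 6 nuclear members at an unadjusted p under 0.05 and 1 called by DESeq2. The fit over the 36 libraries called 30 nuclear members, all lower, and 4 mitochondrial-encoded members, all higher, and removal of the length trend 1 mitochondrial-encoded member. Of all genes called in the fit over the 36 libraries, 45.6% were higher. Library 25 again decided the count. Without it, 27 of 78 nuclear members were lower and 3 higher, where 19.2% of 14170 genes were lower and 21.9% higher, and the nuclear median was -0.08. The 13 mitochondrial-encoded members then had log2 fold changes of 0.50 to 0.95, with a median of 0.78. None of them was called by edgeR, with 3 at an unadjusted p under 0.05 and the lowest adjusted p at 0.0868.

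In cells kept without serine and glycine, carboplatin gave other values. In wt -SG cells 26 of 76 nuclear members were higher and 14 lower, where 34.3% of 14467 genes were higher and 34.6% lower, so the higher share was near that of all genes. The split was 21 and 16 with total counts in place of TMM. Without library 11, 24 were higher and 27 lower, where 36.6% of 14657 genes were higher and 36.7% lower, and the median went from 0.04 to -0.04. ATP5MK was at 77.4 to 79.1 CPM in wt -SG and at 119, 124 and, in library 11, 154 CPM in wt -SG carbo libraries, a log2 fold change of 0.79 (SE 0.0925, adjusted p = 4.40e-05, edgeR). ATP5MC1 rose by 0.68 and NDUFS5 by 0.66, and without library 11 these 3 rose by 0.67, 0.56 and 0.59. NDUFS4 fell by 0.87, NDUFA5 by 0.48 and COX7A2L by 0.47, or by 0.96, 0.52 and 0.55 without library 11. COX7A2L went from 148 to 159 CPM down to 100.0 to 119 CPM. No mitochondrial-encoded member was called, by edgeR or DESeq2, or had an unadjusted p under 0.05 by edgeR, and the median was -0.13, or -0.46 without library 11.
In cis -SG cells 6 of 77 nuclear members were lower and 3 higher with carboplatin, where 11.6% of 14476 genes were lower and 10.9% higher, and the median was -0.05. The count was 3 by DESeq2, 1 in the fit over the 36 libraries and 1 to 15 with each library left out, the highest without library 22 and the lowest without library 20 or 24. Each of the 13 mitochondrial-encoded members was negative, with a median of -0.50, but only MT-CO2, at -0.67 (SE 0.123, adjusted p = 0.0254, edgeR), and MT-ND3, at -0.39 (SE 0.0729, adjusted p = 0.0128, edgeR), were called, with 9 called by DESeq2 and none by edgeR without library 22. MT-CO2 was at 3277, 3563 and 4018 CPM in cis -SG and at 2288, 2277 and 1862 CPM in cis -SG carbo libraries, which did not overlap. Libraries 23 and 24 of that condition had more reads on no feature than any other, up to 17.9% of a library, against at most 9.31% elsewhere, and their part in this result was not tested.
In cis SSP -SG cells the mitochondrial-encoded members went the opposite way. With all libraries 4 of 13 were higher, MT-ATP8, MT-ND4, MT-ND1 and MT-ND5, and 0 of 78 nuclear members were called by edgeR, where 1.17% of 13541 genes were higher and 0.295% lower, with 3 nuclear members at an unadjusted p under 0.05 and 1 called by DESeq2. Without library 32, all 13 were higher, with a median log2 fold change of 0.95, and 8 nuclear members were higher and 18 lower, where 21.1% of 13833 genes were higher and 19.9% lower. MT-ND4 was at 6884, 7753 and 8453 CPM in cis SSP -SG and at 17360, 16230 and 13110 CPM in cis SSP -SG carbo libraries, a log2 fold change of 1.02 with all libraries (SE 0.158, adjusted p = 0.0438, edgeR). MT-ATP8 went from 287 to 340 up to 600 to 717 CPM, at 1.12 (SE 0.126, adjusted p = 0.0181, edgeR). Without library 32 the values were 1.04 for MT-ND4 and 1.09 for MT-ATP8, both called. Leaving out any library other than library 32 ended all 4 calls, and that of MT-ND5 was also lost under 4 alternatives of normalization or filter. DESeq2 called 9 of the 13 higher, removal of the length trend 8 and the fit over the 36 libraries 7. The nuclear median was -0.42 with all libraries and -0.01 without library 32. Whether the mitochondrial response differs between deprived cis and cis SSP cells was not tested.

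Genes of the chain that the symbol rule leaves out, and genes that act around it, were counted in the same way between wt and cis cells. Of all genes tested there, 39.1% were lower and 39.4% higher. Of the 10 genes listed as complex II and cytochrome c, 7 were lower and 3 higher in cis cells. SDHAF4 was at -0.99. CYC1, the cytochrome c1 of complex III, which the symbol rule leaves out, was at 0.33. Complex I assembly factors had 7 lower and 5 higher of 14, with TMEM126B at -2.27 and NDUFAF6 at 1.12. Complex IV assembly factors had 5 lower and 8 higher of 20. Genes of mitochondrial DNA maintenance and transcription had 2 lower and 10 higher of 17. TFAM, which packages and transcribes mitochondrial DNA, was at -0.66 and TOP1MT at 1.16. Mitochondrial RNA processing genes had 4 lower and 9 higher of 16, and mitochondrial ribosomal protein genes 22 lower and 29 higher of 74, with a median of 0.01, both shares below those of all genes. Among the regulators of mitochondrial biogenesis, 6 were higher and 2 lower of 9 tested. ESRRG, a nuclear receptor known to drive oxidative metabolism genes (chromosome 1 from 216676588 to 217311097), had 874 to 1030 counts in wt libraries and 0 counts in all 12 cis libraries. At 51.9 CPM in wt cells, it was at least 262-fold higher than in cis cells, taking 3 counts in a cis library as the limit. In cis SSP cells it had 24 to 57 counts, at least 12.99-fold above cis cells by the same limit. PPARGC1A, its coactivator, had at most 2 counts in any library.
With deprivation in cis cells, where 37.4% of all genes tested fell and 37.6% rose, more genes fell than rose in each of the lists that follow. Mitochondrial ribosomal protein genes had 54 lower and 8 higher of 74, with a median of -0.32, and in wt cells, where 25.1% of all genes fell and 24.1% rose, 45 lower and 5 higher, with a median of -0.20. Complex II and cytochrome c had 8 lower and 0 higher of 10, complex I assembly 10 and 1 of 14, complex IV assembly 13 and 3 of 20, DNA maintenance and transcription 9 and 1 of 17 and RNA processing 10 and 2 of 16. RRM2B, a p53-linked ribonucleotide reductase subunit, was the gene higher among those of DNA maintenance, at 0.87, and COX19 was higher among complex IV assembly factors, at 1.06. With carboplatin in wt cells the ribosomal protein genes had 39 lower and 17 higher of 74, where 39.0% of all genes fell and 38.9% rose. With carboplatin in cis cells they had 10 lower and 6 higher, near the 10.8% and 9.27% of all genes.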

How the data were processed

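RNA was purified as messenger RNA, and libraries were made with the SENSE Total RNA-Seq kit and read in single 65-base reads. Alignment was by STAR on GRCh37.p13 and exon counting by HTSeq on GENCODE, and the authors deposited raw counts per gene, with no normalization. How strand and reads with several alignments were treated is not given in the sources used here. Left out were 3 rows of the deposited table without a gene, 1 of which held up to 17.9% of a library.

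Symbols, positions and transcript lengths were read from GENCODE v44 on GRCh37. It named 55538 of 57820 genes. Samples were grouped by their labels, which give no replicate numbers shared between conditions. Libraries of a condition differed by a mean chi-square per gene of 1.20 to 123 in 36 pairs, lowest for libraries 10 and 12. All libraries were kept as separate ones. Whether any pair came from the same RNA was not tested. The 13 comparisons used edgeR 4.0.16 in R 4.3.3 on the libraries of their own conditions (TMM, filterByExpr, estimateDisp, robust glmQLFit, glmQLFTest), with Benjamini-Hochberg adjustment over all genes tested and calls at adjusted p under 0.05. The standard error is the absolute log2 fold change over the root of F. CPM were scaled by TMM over the 36 libraries, and the length trend used log2(CPM + 0.5). Of the 99 members, 89 to 91 passed the filter in a comparison. Sums over members have no test.

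Alternatives were DESeq2 1.42.0 (the study's tool), its size factors in edgeR, total counts, normalization from nuclear genes, no filter, at least 10 counts in every library, a fit over all 36 libraries, removal of the length trend, and each library left out. Named were all mitochondrial-encoded members, isoform partners, and per comparison at most 3 called nuclear members in each direction with 50 or more counts on average and separate groups. A few further members, such as COX4I1, NDUFS7 and those that complete a small count, were named after their values were seen. The 10 Mb neighbours and genes with short transcripts were compared, and fits without libraries 11, 25 or 32 given a background, after the data were seen. The members and lists were chosen with earlier results of these data known. The test was tried on simulated data. Tables and plots used Python 3.11.15, pandas 2.3.3 and matplotlib 3.10.9.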

Additional observations from a re-analysis of the deposited data

Results flagged for a closer look

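Nuclear respiratory chain genes answered carboplatin differently in both lines. The interaction term of edgeR put the log2 fold change higher in cis than wt cells for 47 members and lower for 4. Of all 15300 genes tested, 30.3% were higher and 27.2% lower. Among the higher members, the difference was 0.78 for NDUFS4, 0.64 for NDUFB3 and 0.64 for NDUFA5. Among the lower members it was -0.28 for ATP5IF1, -0.23 for ATP5MK and -0.19 for NDUFS5. The fit over the 36 libraries called 4 nuclear members, all higher in cis cells.

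The response to serine/glycine deprivation also differed between the lines, with the log2 fold change higher in cis cells for 7 nuclear members and lower for 48. Of all 15418 genes tested, 27.1% were higher and 26.9% lower. The difference was -0.71 for ATP5F1A, -0.70 for NDUFA3 and -0.69 for UQCRHL, and 0.31 for NDUFC2, 0.40 for NDUFA5 and 0.63 for NDUFA4L2. MT-ND2 differed as well, at 0.82. The fit over the 36 libraries called 9 nuclear members, all lower in cis cells, and no mitochondrial-encoded member. The calls of NDUFC2, NDUFA4L2 and MT-ND2 were lost under several alternatives, DESeq2 among them for NDUFC2 and NDUFA4L2. UQCRHL is a near copy of UQCRH and may have taken its reads. Groups of 3 libraries are too small for a test of single libraries that stand apart.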

How the results depend on the processing

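With a single fit over the 36 libraries in place of separate fits, the number of nuclear members called was 29 for cis vs wt, 64 for cis SSP vs cis, 15 for wt carbo vs wt, 0 for cis carbo vs cis, 30 for cis SSP carbo vs cis SSP, 2 for wt -SG vs wt, 1 for cis SSP -SG vs cis SSP, 19 for wt -SG carbo vs wt -SG, 1 for cis -SG carbo vs cis -SG, 11 for cis SSP -SG carbo vs cis SSP -SG, and 4 and 9 for the interactions with carboplatin and deprivation. DESeq2 gave 34, 2, 1, 1, 3 and 1 for cis SSP vs cis, cis carbo vs cis, cis SSP carbo vs cis SSP, cis SSP -SG vs cis SSP, cis -SG carbo vs cis -SG and cis SSP -SG carbo vs cis SSP -SG. For cis SSP vs cis the number was 26 without the filter and 28 with the length trend removed. The share of all genes called in these alternative fits is not given here, so these counts are not read as a trait of the members. The cause of these changes was not tested. The other 84 counts stayed within 1.5 times.

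With each library left out, the number ranged from 65 to 69 for cis vs wt, 3 to 61 for cis SSP vs cis, 60 to 64 for wt carbo vs wt, 0 to 7 for cis carbo vs cis, 0 to 30 for cis SSP carbo vs cis SSP, 53 to 60 for wt -SG vs wt, 68 to 71 for cis -SG vs cis, 31 to 51 for wt -SG carbo vs wt -SG, 1 to 15 for cis -SG carbo vs cis -SG, 0 to 26 for cis SSP -SG carbo vs cis SSP -SG, 48 to 53 for the interaction with carboplatin and 49 to 56 for that with deprivation. It was 32 for cis SSP -SG vs cis SSP without libraries 25 and 32. The highest values for cis SSP cells were those without library 25 or 32. The median of the mitochondrial-encoded members moved by less than the spread between libraries under each alternative.

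Of 139 log2 fold changes of called named members, none changed sign under the alternatives, 47 kept their call under all of them and 102 under all but the fit over the 36 libraries. No paired analysis was possible because the labels give no replicate numbers shared between conditions.

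With medians of the members in place of sums, over all libraries, the log2 ratio of mitochondrial-encoded to nuclear members was 4.76 in wt, 5.57 in wt carbo, 5.246 in wt -SG, 5.18 in wt -SG carbo, 5.07 in cis, 5.38 in cis carbo, 6.12 in cis -SG, 5.596 in cis -SG carbo, 4.53 in cis SSP, 5.67 in cis SSP carbo, 4.72 in cis SSP -SG and 5.87 in cis SSP -SG carbo cells. Per kilobase it was 2.26 in wt carbo, 1.85 in cis, 2.76 in cis -SG, 2.296 in cis -SG carbo, 2.48 in cis SSP carbo and 2.81 in cis SSP -SG carbo cells.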
